A study of Mus musculus with 16 samples.

Results

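Integrins are the cell surface receptors through which muscle cells hold on to laminin, fibronectin and the other proteins of the matrix around them. The genes described here are 9 integrin subunits, Itga1, Itga3, Itga4, Itga5, Itga6, Itga7, Itgav, Itgb1 and Itgb5, and Itgb1bp2, which encodes melusin, a muscle protein that binds the tail of the β1 subunit. They were chosen by name and are 10 of the 35275 genes in the expression table. Gene expression had been measured by RNA sequencing in C2C12, an established mouse myoblast line that stops dividing and fuses into myotubes when serum is lowered. The study asks, per its title, what the miR-206 family does for muscle function and myogenesis in culture. All libraries came from C2C12 cells that the labels call PAX7 negative. The control cells were labelled wild-type and came from 2 populations. The knockout cells lacked miR-206 together with both of its relatives miR-1a-1 and miR-1a-2 (a knockout of 3 genes, tKO) and came from 2 clones. Each population or clone, here called a line, was sampled in growth medium (GM, 20% fetal bovine serum) and after 3 days of differentiation (DM3, 2% horse serum), in 2 cultures that the labels number. This gave 4 groups of 4 libraries. All knockout libraries came from clones and all control libraries from populations. Differences between genotypes and differences between cloned and uncloned cells therefore cannot be told apart. With only 2 clones, genotype is also hard to separate from differences between clones.

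An integrin is a pair of 1 α and 1 β subunit, and the pair decides which matrix protein is bound. In skeletal muscle α7β1 is the main laminin receptor of the mature fibre and sits at the sarcolemma and the myotendinous junction. α6β1 and α3β1 also bind laminins, and α5β1 is the classical fibronectin receptor. αv pairs with β1, β3, β5 and other β subunits and binds vitronectin, fibronectin and latent TGF-β. α4β1 binds fibronectin and VCAM-1, and α1β1 binds collagens. β1 pairs with all of these α subunits, and αv, α6 and α4 also pair with other β subunits. An α subunit needs a β partner to reach the surface.

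The deleted miRNAs share a seed, the bases that pair with target mRNAs, so sites for that seed were looked for in the longest annotated 3′ UTR of each gene. The mature miR-206 is shown first with its seed in capitals (RefSeq, GRCm38.p6, chr1:20679055-20679076, plus strand). The windows around the matches follow, with the matching letters in capitals and 10 bases on either side (GRCm38).
mmu-miR-206-3p: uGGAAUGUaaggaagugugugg
Itgav, chr2:83804458-83804485, plus strand: cctgggacccACATTCCAaaggtggctc
Itga4, chr2:79332804-79332830, plus strand: catctgtgacCATTCCAaagcactctt
Itgav holds the 8-base match ACATTCCA, which starts at base 1133 of a 3′ UTR of 3581 bases. Itga4 holds the 7-base match CATTCCA, at base 6199 of 6508. The 3′ UTRs of the other 8 genes, from 176 bases in Itgb1bp2 to 6994 in Itga1, hold neither of these nor ACATTCC on the transcribed strand. ACATTCCA contains both 7-base motifs. Of 10801 tested genes with an annotated 3′ UTR, 4.46% hold the 8-base match and 18.9% hold at least 1 of the 3 motifs. A match is a property of the letters and not a measured binding site.

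Levels are given as FPKM, fragments per kilobase of gene length and scaled to the fragments of the library, so that genes of different length can be set side by side. The control libraries held 24848686 to 34954079 fragments in GM and 31834264 to 56585952 in DM3. The knockout libraries held 22642563 to 31378669 in GM and 27714736 to 32102386 in DM3. The summed FPKM of 8 myotube markers (Myog, Ckm, Acta1, Myh3, Tmem8c, Tnnt3, Actc1 and Des) was 40.0 to 57.5 in control GM and 888 to 1292 in control DM3. In the tKO it was 30.4 to 98.4 in GM and 392 to 1271 in DM3. The tKO DM3 libraries split by culture, with 1271 and 1079 in culture 1 and 449 and 392 in culture 2. Most of the DM3 sum was Acta1, Des and Tnnt3, whose means were lower in the tKO than in the control (Des 175 and 339). The DM3 means of Myog, Ckm, Myh3, Tmem8c and Actc1 were higher in the tKO (Myh3 45.1 and 12.7). Of 5 cycling markers the sum was 273 to 316 and 201 to 340 in control and tKO GM, against 74.4 to 91.1 and 31.3 to 101 in DM3. Of 4 connective tissue markers (Pdgfra, Dcn, Lum, Postn) the sum was at most 13.4 in GM and at least 51.3 in DM3. Postn and Dcn held most of the DM3 sum. Pdgfra had means of 3.23 and 3.39 in control GM and DM3 and 0.778 and 1.61 in tKO GM and DM3, and Lum means were at most 0.154. Endothelial markers summed to at most 0.483, epithelial markers to at most 4.30, haematopoietic markers to at most 4.07, adipocyte markers to at most 11.5 and myoblast markers (Myf5, Cdh15, Pax7) to 23.7 to 74.6, and Ptprc, which marks blood cells, had at most 10 fragments. Pax7 had 0 to 6 fragments in a library. Fewer cells of a type and less RNA per cell cannot be told apart in these bulk samples. The part of these shifts in the integrin values was not tested.

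Within control GM the order of levels was Itgb1, Itgb5, Itga5, then Itga7, Itgav and Itga3, then Itga6. The means ran from 313 FPKM for Itgb1 to 14.2 for Itga6. Neighbours among Itga7, Itgav and Itga3 overlapped in range, and the other neighbours did not. In DM3 Itga7 stood at the top in both genotypes, level with Itgb1 in that their ranges overlapped, and Itga5, Itgb5, Itga3, Itgav and Itga6 followed. Itgb1bp2, Itga1 and Itga4 were at the bottom in all 4 groups. Of the 10 genes, 7 reached the mean of 0.5 FPKM that was required for the tests.

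**Figure D1:**
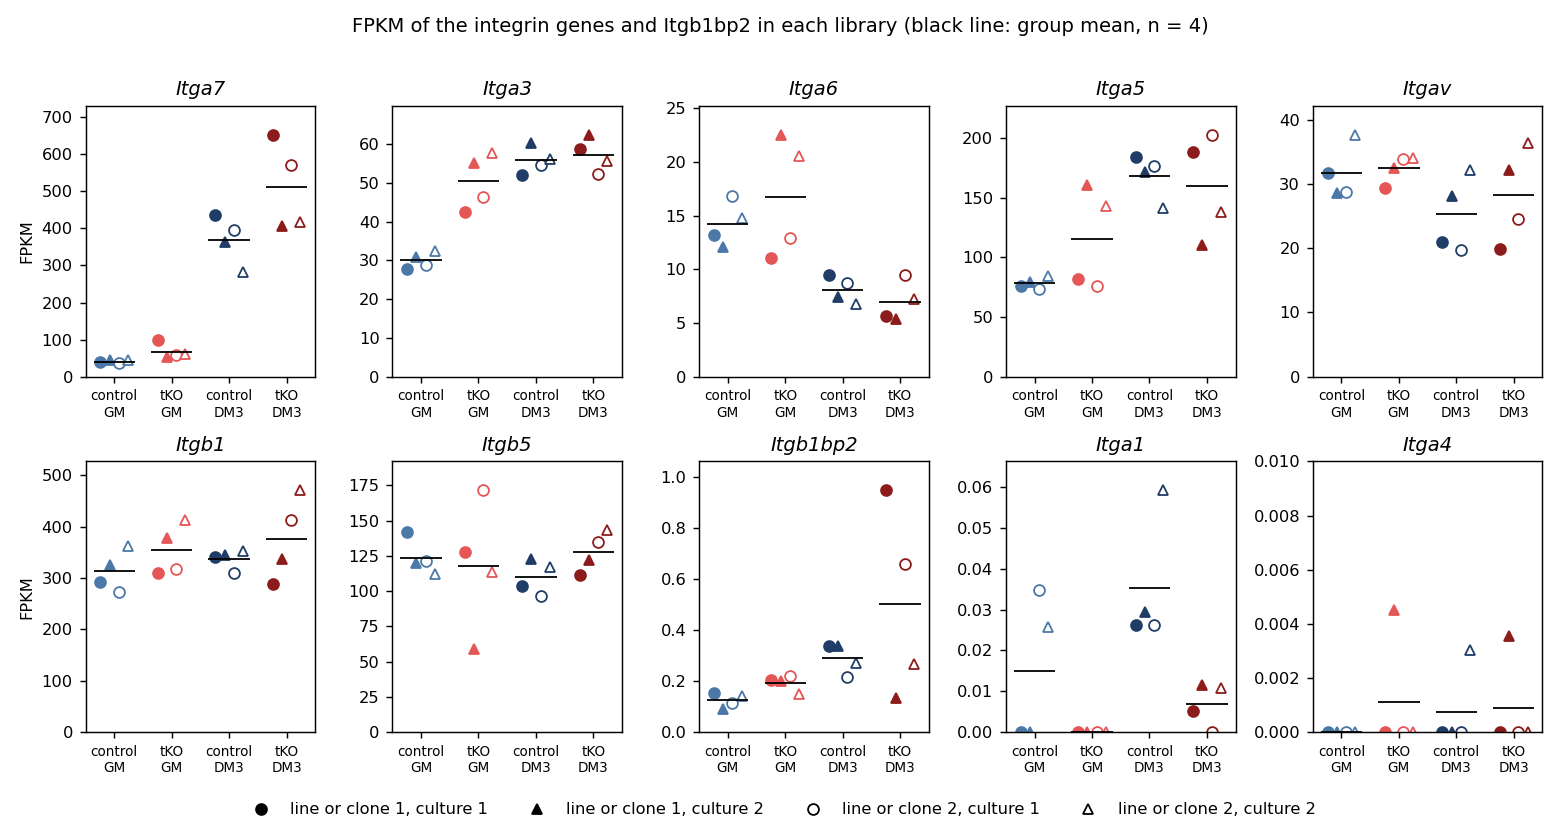
Level of each of the 10 genes in every library, as FPKM on linear axes that start at 0 and differ between panels. Each symbol is 1 library (filled, line 1; open, line 2; circle, culture 1; triangle, culture 2) and the black line is the group mean (n = 4). Itga7 lies between 36.2 and 98.6 FPKM in the 8 GM libraries and between 281 and 651 in the 8 DM3 libraries, while Itgb1 lies between 272 and 470.

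The genes were first compared between DM3 and GM in the control cells. Of the 7 tested, 3 rose (Itga7, Itga5 and Itga3) and 1 fell (Itga6). Over all 11832 genes tested, 61.5% passed in this comparison, 23.2% as higher and 38.3% as lower, so most genes of the cell changed with the stage and the members' share is near that background. The groups did not overlap for those 4 genes, where 64.4% of all genes did not overlap. The median log2 change was 0.11 over the 7 genes and -0.15 over all genes. The split depends on the scaling: 2743 genes were higher and 4529 lower on FPKM, against 3648 and 3615 after median-of-ratios scaling, which moved the median of all genes to 0.012. In the tKO cells 1 of the 7 rose (Itga7) and 1 fell (Itga6), against a background of 60.9% (24.9% higher, 36% lower). The groups of those 2 genes did not overlap, where 49.1% of all genes did not. There the median log2 change was 0.19 over the 7 genes and -0.12 over all genes. With median-of-ratios scaling 3638 genes were higher and 3537 lower in the tKO, against 2951 and 4257 on FPKM. All changes below are differences of log2(FPKM + 1), with the standard error (SE) from limma and a p-value adjusted over all genes tested.

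Itga7 (ENSMUSG00000025348, chromosome 10, 128933813 to 128958277, plus strand) encodes the α7 subunit of the muscle laminin receptor. In control GM its libraries read 38.5, 44.7, 36.2 and 44.0 FPKM, in the order line 1 culture 1, line 1 culture 2, line 2 culture 1 and line 2 culture 2, which is kept below. In control DM3 they read 437, 363, 396 and 281. The lowest DM3 library was thus far above the highest GM library, and the mean rose 9.04-fold, from 40.9 ± 4.16 (SD, n = 4) to 369 ± 66.1. The log2 change was 3.13 (SE 0.20, adjusted p = 3.73e-09). In the tKO the GM libraries read 98.6, 52.6, 58.7 and 61.0 and the DM3 libraries 651, 408, 570 and 416. The mean rose 7.55-fold, from 67.7 ± 20.9 to 511 ± 120, a log2 change of 2.91 (SE 0.20, adjusted p = 6.68e-09). Within each culture number and each line the change lay between 2.82 and 3.44. Its direction there was given by the groups being apart. A gene on the opposite strand, Mettl7b, overlaps the Itga7 locus and read 0 to 0.793 FPKM.

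Itga3 (ENSMUSG00000001507, chromosome 11, 95044474 to 95076801, minus strand) encodes α3, a receptor subunit for the laminins of epithelial and other basement membranes. Control GM read 27.8, 30.9, 28.9 and 32.4 FPKM and control DM3 52.1, 60.3, 54.7 and 56.2. The groups were apart, with a 1.86-fold rise and a log2 change of 0.88 (SE 0.10, adjusted p = 2.74e-06). In the tKO the gene already read 42.5, 55.1, 46.2 and 57.7 in GM, and 58.7, 62.3, 52.2 and 55.5 in DM3. Those groups overlapped, and the change of 0.19 (SE 0.10, 95% interval -0.03 to 0.41) did not pass, with an adjusted p of 0.133. It passed after median-of-ratios scaling (adjusted p = 0.0153).

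Itga6 (ENSMUSG00000027111, chromosome 2, 71745616 to 71858416, plus strand) encodes α6, a laminin receptor subunit. In the control it fell while its laminin-binding relatives Itga7 and Itga3 rose. In the tKO only Itga7 of these relatives passed as higher. For Itga6, control GM read 13.2, 12.1, 16.8 and 14.7 FPKM and control DM3 9.43, 7.45, 8.76 and 6.78. All DM3 libraries were lower, the mean was 1.75-fold lower and the log2 change was -0.74 (SE 0.20, adjusted p = 0.00501). Without control line 2 it was -0.54 and did not pass (adjusted p = 0.197). In the tKO the GM libraries read 11.05, 22.5, 12.95 and 20.5 and the DM3 libraries 5.70, 5.41, 9.43 and 7.19. The change of -1.13 (SE 0.20, adjusted p = 0.00016) put the mean 2.42-fold lower. The ratio of Itga7 to Itga6 puts both movements together. Its median was 2.95 (2.15 to 3.69) in control GM and 45.8 (41.5 to 48.7) in control DM3. In the tKO it was 3.75 (2.34 to 8.92) in GM and 67.9 (57.9 to 114) in DM3.

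Itga5 (ENSMUSG00000000555, chromosome 15, 103344289 to 103366763, minus strand) encodes the α5 subunit of the fibronectin receptor. Control GM read 76.0, 79.2, 73.4 and 84.2 FPKM and control DM3 184, 172, 176 and 142. The groups were apart, with a 2.15-fold rise and a log2 change of 1.09 (SE 0.22, adjusted p = 0.00051). Without control line 1 the adjusted p was 0.0501. The tKO GM libraries read 82.2, 161, 75.7 and 143 and the DM3 libraries 188, 110, 203 and 138. These groups overlapped, and the change of 0.50 (SE 0.22, 95% interval 0.03 to 0.98) had an adjusted p of 0.0631. The tKO values divided by culture. Between the libraries numbered 1 both clones were higher in DM3, by 1.30 on average, and between those numbered 2 both were lower, by -0.29. The labels do not say that a number joins a GM culture to a DM3 culture, so these are values side by side. Across stages, deviations from the group means had a mean correlation of 0.0069 (-0.363 to 0.323, 16 pairs) between same-numbered libraries of a genotype. Between other-numbered libraries it was -0.0062, which mirrors the first by construction because deviations sum to 0 within a group. The pairs pool both genotypes and all lines, so they are not about Itga5 in the tKO alone. The tKO call is sensitive to single libraries: it passed without any of 3 libraries in turn, with adjusted p-values down to 0.0132, and after median-of-ratios scaling (adjusted p = 0.0313).

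Itgav (ENSMUSG00000027087, chromosome 2, 83724397 to 83806916, plus strand), the gene with the 8-base seed match shown above, encodes αv. It read 31.7, 28.6, 28.7 and 37.6 FPKM in control GM and 20.98, 28.1, 19.7 and 32.2 in control DM3. The ranges overlapped and the change of -0.33 (SE 0.18, 95% interval -0.71 to 0.04) did not pass (adjusted p = 0.112). It did pass without line 2 culture 2 of control DM3 (adjusted p = 0.0387). In the tKO it read 29.3, 32.5, 33.9 and 34.0 in GM and 19.9, 32.2, 24.6 and 36.3 in DM3, a change of -0.23 (SE 0.18, adjusted p = 0.284). In DM3 culture 2 stood above culture 1 in all 4 lines, by 0.40 and 0.68 in the controls and 0.66 and 0.54 in the clones.

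Neither β subunit passed the test between stages. Itgb1 (ENSMUSG00000025809, chromosome 8, 128685654 to 128733200, plus strand) encodes β1, the common partner. It read 293, 325, 272 and 363 FPKM in control GM and 340, 344, 309 and 352 in control DM3, a log2 change of 0.11 (SE 0.15, 95% interval -0.20 to 0.42, adjusted p = 0.542). In the tKO it read 310, 378, 317 and 413 in GM and 287, 337, 412 and 470 in DM3, a change of 0.072 (SE 0.15, 95% interval -0.24 to 0.38, adjusted p = 0.693). The groups overlapped in both genotypes. Itgb5 (ENSMUSG00000022817, chromosome 16, 33829665 to 33949153, plus strand) encodes β5, which pairs with αv in a vitronectin receptor. Control GM read 142, 120, 121 and 112 FPKM and control DM3 104, 123, 96.2 and 117, a change of -0.17 (SE 0.22, adjusted p = 0.530) that turned to 0.038 after median-of-ratios scaling. The tKO read 128, 58.8, 171 and 114 in GM and 112, 122, 135 and 144 in DM3, a change of 0.21 (SE 0.22, adjusted p = 0.438). The spread was widest in tKO GM, where clone 1 culture 2 held the lowest value and clone 2 culture 1 the highest.

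The remaining 3 genes were close to or at the limit of detection. Itgb1bp2 (ENSMUSG00000031312, chromosome X, 101449088 to 101453541, plus strand), the melusin gene, is known from striated muscle. It read 0.0919 to 0.152 FPKM in control GM and 0.215 to 0.339 in control DM3, which are 3 to 7 and 9 to 25 fragments. The groups did not overlap. In the tKO it read 0.205, 0.202, 0.218 and 0.148 in GM and 0.948, 0.132, 0.659 and 0.269 in DM3, so the high values were those of culture 1. Fitted without the filter on low values, its change was 0.20 in the control (adjusted p = 0.290) and 0.30 in the tKO (adjusted p = 0.0857). Itga1 (ENSMUSG00000042284, chromosome 13, 114958079 to 115101964, minus strand), a collagen receptor subunit, had 0 to 12 fragments in a library and at most 0.0592 FPKM. It was at 0 in all 4 tKO GM libraries and in both libraries of control line 1 in GM. In DM3 the control libraries, at 5 to 12 fragments, all lay above the tKO libraries, at 0 to 2. Of the genes tested, 8.52% did not overlap there. Fitted with limma without the filter, that difference was -0.040 (adjusted p = 0.135). The listed length of Itga1, 5984 bases, is shorter than the 3′ UTR of 6994 bases searched above. Pelo, a gene on the same strand within the Itga1 locus, read 1.89 to 8.22 FPKM, and how fragments in the overlap were assigned is not given in the sources used here. Itga4 (ENSMUSG00000027009, chromosome 2, 79255426 to 79333123, plus strand), a subunit of the fibronectin and VCAM-1 receptor, had 0 or 1 fragment in each library, under the detection limit of 3 fragments. Whether it differs between groups was not detectable at this depth.

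Because FPKM is per length, the α subunits can be given as a make-up, each as a share of the summed FPKM of 18 α subunits in a library. In control GM Itga5 held 39.9% ± 0.475 (SD, n = 4), Itga7 20.8% ± 1.33, Itgav 16.1% ± 1.35, Itga3 15.3% ± 0.453 and Itga6 7.29% ± 1.26. In control DM3 Itga7 held 57.9% ± 3.67, Itga5 26.6% ± 0.421, Itga3 8.93% ± 1.44, Itgav 4.11% ± 1.49 and Itga6 1.28% ± 0.0773. Itga3 and Itga5 thus took smaller shares in DM3 although their own levels rose. In tKO DM3 Itga7 held 65.9% ± 2.98 and Itga5 20.5% ± 2.36, with ranges of 62.7% to 69.9% and 17.6% to 23.4%. The control DM3 ranges, 53.3% to 61.7% for Itga7 and 26.0% to 26.9% for Itga5, lay wholly below and wholly above these. The Itga6 share was also apart, at 0.611% to 1.09% in tKO DM3 and 1.16% to 1.33% in control DM3. Itga3 and Itgav shares overlapped. Shares of 1 sum are tied to each other, and the FPKM of Itga7 and of Itga5 overlapped between genotypes in DM3. No share over all genes is at hand for this kind of value. In tKO GM the Itga7 share was spread from 16.2% to 37.2%, and clone 1 culture 1 was the highest. The α sum was 196 ± 13.1 FPKM in control GM and 634 ± 76.9 in control DM3, and 284 ± 45.1 and 771 ± 151 in the tKO. The sum of 8 β subunits was 484 ± 27.1 in GM and 461 ± 31.4 in DM3 in the control, and 532 ± 30.7 and 524 ± 87.3 in the tKO. The median ratio of the α sum to Itgb1 was therefore 0.624 in control GM and 1.97 in control DM3, and 0.811 and 1.98 in the tKO. These are mRNA levels, and receptor at the surface was not measured. The shares are a description, with no test.

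**Figure D2:**
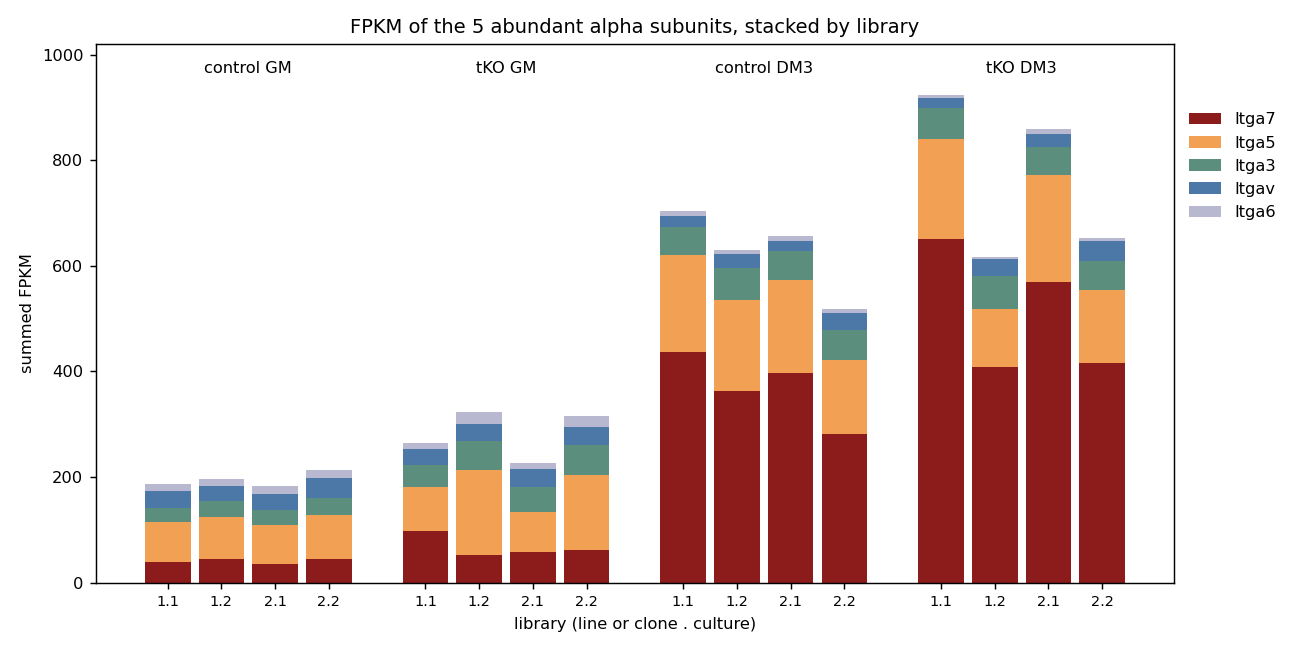
FPKM of the 5 abundant α subunits, stacked for each library, with libraries named by line and culture and grouped by genotype and stage. The Itga7 block is the largest in all 8 DM3 libraries, at 281 to 651 FPKM. In the GM libraries Itga5, at 73.4 to 161 FPKM, is the largest in all but clone 1 culture 1 of tKO GM.

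The comparison of tKO with control in GM asked what the loss of the miRNAs does to these genes in growing myoblasts. Of the 7 genes tested, 1 was higher and none was lower, where 2.06% of all genes passed, 0.549% as higher and 1.51% as lower. That gene was Itga3. Its 4 tKO GM libraries, 42.5 to 57.7 FPKM, all lay above the 4 control GM libraries, 27.8 to 32.4, with means of 50.4 ± 7.18 and 30.0 ± 2.06. The difference was 0.72 (SE 0.10, adjusted p = 0.000969), a 1.68-fold higher mean. Since the groups were apart, the tKO is higher in any split of them. Line numbers do not tie a clone to a control population. The difference was 0.63 and 0.81 within cultures 1 and 2 and 0.71 and 0.74 within lines 1 and 2. With control line 1 left out it was 0.69 (adjusted p = 0.129), and with control line 2 left out 0.75 (adjusted p = 0.0861), where only 33 and 38 genes passed in all, against 244.

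Itga7 was the other gene whose groups were apart in GM, so 2 of the 7 did not overlap where 14% of all genes did not. All tKO libraries (52.6 to 98.6 FPKM) were above all controls (36.2 to 44.7), and the difference of 0.68 (SE 0.20, 95% interval 0.26 to 1.09) missed the threshold (adjusted p = 0.0845). Clone 1 culture 1 held the highest value, 98.6. In that library the myotube markers summed to 51.1 FPKM, and their highest sum in GM, 98.4, was in clone 1 culture 2, where Itga7 read 52.6. Acta1 alone reached 72.1 FPKM in tKO GM. The part of differentiation in these Itga7 values was not tested. Without clone 1 culture 1 of tKO GM the Itga7 difference was 0.48 (adjusted p = 0.208).

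The remaining 5 genes overlapped between genotypes in GM. Itga5 differed by 0.48 (SE 0.22, adjusted p = 0.277), Itgb1 by 0.18 (adjusted p = 0.587), Itga6 by 0.18 (adjusted p = 0.710), Itgb5 by -0.16 (adjusted p = 0.762) and Itgav by 0.040 (SE 0.18, 95% interval -0.33 to 0.41, adjusted p = 0.937). At an unadjusted p under 0.05, 3 of the 7 genes passed, where 17.5% of all genes did. Over the 7 genes the median difference was 0.18, and over all genes -0.012.

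Several of these values turned on the culture number in the clones. In tKO GM Itga5 was higher in culture 2 than in culture 1 by 0.96 in clone 1 and 0.91 in clone 2, against 0.059 and 0.20 in the control populations. Itga6 was higher in culture 2 by 0.96 and 0.63 in the clones, and lower by -0.11 and -0.18 in the controls. Itgb5 went down in culture 2, by -1.11 and -0.59 in the clones and by -0.25 and -0.11 in the controls. As a result the genotype difference of Itga6 in GM was -0.29 in culture 1, with both clones lower, and 0.65 in culture 2, with both higher. For Itga5 it was 0.078 and 0.88. The labels do not say what sets the cultures apart.

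In DM3 none of the 7 genes passed between tKO and control, with limma, where 3.38% of all genes did (2.02% higher, 1.36% lower), and 1 (Itga7) had an unadjusted p under 0.05, where 16.8% of all genes did. None passed with voom on the fragment numbers either, and the groups of all 7 overlapped, where 8.52% of all genes did not. Itga7 read 408 to 651 FPKM in the tKO and 281 to 437 in the control, groups that overlapped, with a difference of 0.46 (SE 0.20, 95% interval 0.04 to 0.87, adjusted p = 0.244). Itga3, the gene that stood apart in GM, read 52.2 to 62.3 in the tKO and 52.1 to 60.3 in the control, a difference of 0.033 (SE 0.10, 95% interval -0.19 to 0.26, adjusted p = 0.911). Itgb5 differed by 0.22 (adjusted p = 0.678), Itgav by 0.15 (adjusted p = 0.726), Itgb1 by 0.14 (adjusted p = 0.688), Itga5 by -0.11 (adjusted p = 0.858) and Itga6 by -0.22 (adjusted p = 0.644). Over the 7 genes the median was 0.14, and over all genes 0.0077.

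In DM3 Itgb1 read 287 and 337 FPKM in clone 1 and 412 and 470 in clone 2, against 309 to 352 in the controls. It was lower than in the control of the same number by -0.14 in clone 1 and higher by 0.42 in clone 2. Each of these sets only 2 libraries against 2, and the whole groups overlapped. Line numbers do not tie a clone to a control population, so these are values side by side. Itga5 was higher by 0.12 in culture 1 and lower by -0.34 in culture 2. Itgb1bp2 was higher by 0.50 in culture 1 and lower by -0.12 in culture 2. The myotube marker sums, mostly Acta1, Des and Tnnt3, also divided by culture in the tKO. They were 1271 and 1079 FPKM in tKO culture 1 and 449 and 392 in culture 2, against 888 to 1292 in the controls. Their part in these values was not tested.

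Whether the genotype difference changed with the stage was tested as an interaction. None of the 7 genes passed with limma or voom, where 0.254% of all genes did with limma, and 1 had an unadjusted p under 0.05, where 10.8% of all genes did. That gene was Itga3, whose genotype difference was smaller in DM3 than in GM by -0.69 (SE 0.15, adjusted p = 0.0635). It passed without clone 1 culture 1 of tKO DM3 (adjusted p = 0.0355), an omission under which 179 genes passed in place of 30. For Itga5 the interaction was -0.59 (SE 0.32, adjusted p = 0.520), for Itga6 -0.39 (adjusted p = 0.645), for Itgb5 0.38 (adjusted p = 0.691) and for Itga7 -0.22 (SE 0.28, 95% interval -0.81 to 0.37, adjusted p = 0.805). For Itgav it was 0.11 (adjusted p = 0.908) and for Itgb1 -0.037 (adjusted p = 0.968). Over the 7 genes the median was -0.22, and over all genes 0.033.

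**Figure D3:**
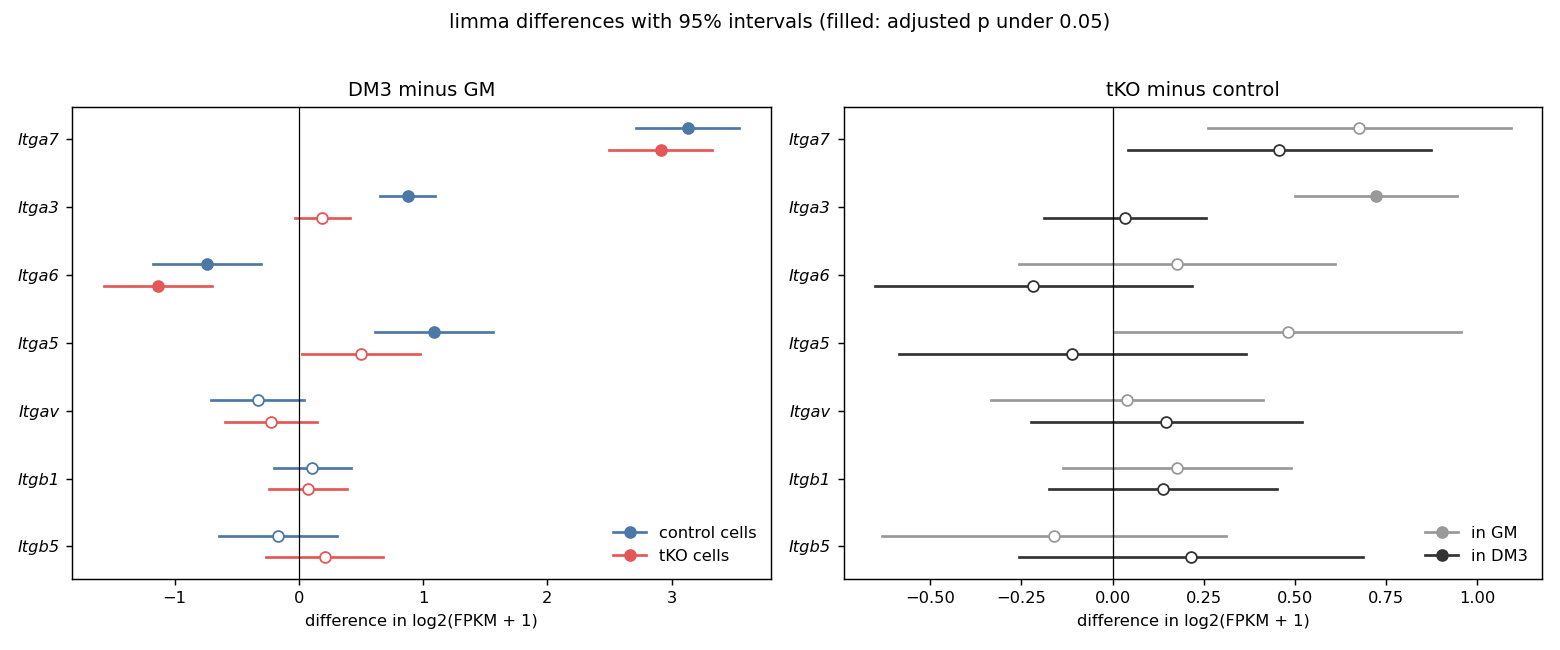
Difference of log2(FPKM + 1) for the 7 tested genes, between stages (left) and between genotypes (right), with the 95% interval from limma. Filled points passed the test, and points to the right of 0 are higher in DM3 or in the tKO. Itga7 stands at 3.13 and 2.91 in the stage comparisons, and Itga3 at 0.72 in GM and 0.033 in DM3 between genotypes.

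Of the 17 other integrin subunits listed, 8 had enough signal to test. In control cells 4 rose and 3 fell with the stage, where 23.2% and 38.3% of all genes did, and in the tKO 4 rose and 1 fell, against 24.9% and 36%. The median change was 0.74 and 0.69, against -0.15 and -0.12 over all genes. Itga10, a collagen receptor subunit, rose by 1.57 and 1.87 in control and tKO. Itga2b, the platelet αIIb subunit, rose by 1.45 and 1.21, and its partner Itgb3 by 0.99 (adjusted p = 0.0231) and 1.22 (adjusted p = 0.00698). The control value of Itgb3 missed the threshold without line 1 culture 2 of control GM (0.86, adjusted p = 0.0672), line 2 culture 2 of control GM (0.89, adjusted p = 0.0621) or line 1 culture 2 of control DM3 (0.89, adjusted p = 0.0623). Itgb4, the partner of α6 in hemidesmosomes, and Itgb2, the leukocyte β2 subunit, fell in the control, with changes of -0.62 and -0.42. Itgb2 read 1.73 ± 0.229 FPKM in control GM and 1.05 ± 0.324 in control DM3, and it missed the threshold without any of 3 control libraries in turn, with adjusted p-values of 0.0705 to 0.0745, and after median-of-ratios scaling (-0.30, adjusted p = 0.102).

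Itgb7, which pairs with α4 and αE in leukocytes, showed a larger stage difference than any of the 7 tested members. Control GM read 33.2, 36.1, 46.4 and 33.9 FPKM and control DM3 0.362, 0.337, 0.458 and 0.375, which are 34 to 51 fragments. The log2 change was -4.78 (SE 0.35, adjusted p = 1.72e-08). The tKO read 61.6, 61.9, 45.1 and 37.7 in GM and 4.60, 5.11, 0.553 and 0.8289 in DM3, a change of -4.03 (SE 0.35, adjusted p = 8.86e-08). In DM3 both cultures of clone 1 held 395 and 393 fragments and those of clone 2 held 41 and 69. Of its known partner genes, Itga4 had at most 1 fragment in any library and Itgae, which encodes αE, had 17 to 68. Ptprc had at most 10. Between genotypes none of these 8 subunits passed in GM or in DM3 with limma or voom, and 1 and 4 had an unadjusted p under 0.05 with limma, where 17.5% and 16.8% of all genes did.

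Matrix ligands of these receptors were examined next. Of 23 listed ligand genes 18 were tested, and 7 rose and 2 fell in control cells, with the same numbers in the tKO. Of all genes 23.2% were higher and 38.3% lower in the control, and 24.9% and 36% in the tKO. The median change was 0.50 and 0.37, against -0.15 and -0.12 over all genes. Lama2, the laminin α2 chain of the muscle basement membrane, rose from 0.319 ± 0.216 to 14.4 ± 1.59 FPKM in the control and from 0.499 ± 0.313 to 13.3 ± 4.84 in the tKO, changes of 3.56 and 3.21. Fn1, fibronectin, rose from 511 ± 115 to 1730 ± 192 and from 550 ± 109 to 1594 ± 224, changes of 1.78 and 1.55. Lamb2, the β2 chain that joins laminin α2 at the myotendinous and neuromuscular junctions, rose by 1.26 and 1.16. Lamb3, a chain of the laminin of epithelial basement membranes, rose by 1.38 in the control, and in the tKO its change was 0.30 (adjusted p = 0.295). The interaction for Lamb3 was -1.08 (adjusted p = 0.234). Lamb1, a laminin β chain, fell, with changes of -0.48 (adjusted p = 0.0238) in the control and -0.74 in the tKO. The control call of Lamb1 was lost when any of 4 control libraries was left out, with adjusted p-values of 0.0563 to 0.0752, and after median-of-ratios scaling (-0.28, adjusted p = 0.201).

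Between genotypes 8 of the 18 ligands in GM and 6 in DM3 had an unadjusted p under 0.05 with limma. Of all genes 17.5% and 16.8% did. After adjustment none was higher in the tKO, where 0.549% of all genes were in GM and 2.02% in DM3. In each stage 1 ligand was lower in the tKO, where 1.51% of all genes were lower in GM and 1.36% in DM3. In GM it was Thbs2, thrombospondin 2, with 19.7 to 42.1 FPKM in the tKO and 56.9 to 94.3 in the control, a difference of -1.27 (SE 0.30, adjusted p = 0.0383). That call was lost without any of 10 libraries in turn, with adjusted p-values of 0.0507 to 0.148. In DM3 it was Lamb3, with 2.04 to 4.81 FPKM in the tKO and 6.86 to 9.67 in the control, a difference of -1.11 (SE 0.24, adjusted p = 0.0151). The adjusted p was 0.0606 without line 1 culture 2 of control DM3 and 0.0543 without clone 1 culture 2 of tKO DM3.

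Inside the cell, integrin tails are tied to actin by adaptors and kinases. Of 28 listed, 25 were tested, and 3 rose and 12 fell with the stage in each genotype, beside all-gene shares of 23.2% higher and 38.3% lower in the control and 24.9% and 36% in the tKO. The median change was -0.37 in the control and -0.35 in the tKO, against -0.15 and -0.12 over all genes. Flna, the actin crosslinker filamin A, fell from 506 ± 42.7 to 137 ± 13.7 FPKM in the control, a change of -1.88, and in the tKO the change was -1.60. Actn1, the non-muscle α-actinin, fell too, with changes of -1.85 and -2.21, and Tns3, a tensin, with -1.54 and -1.31. Fyn, a Src family kinase, rose by 1.03 and 0.80, Lims1, the PINCH adaptor, by 0.60 and 0.48, and Pxn, paxillin, by 0.28 and 0.36. The tKO value of Lims1 missed the threshold without any of 3 tKO libraries in turn (adjusted p of 0.0520 to 0.0731). Ilk, the kinase-like partner of PINCH, was listed at 1 to 34 fragments in a library and was not tested. Rrp8 and Taf10 overlap Ilk on the opposite strand and read 5.24 to 25.2 and 10.8 to 15.7 FPKM, and whether the counting used the strand is not given in the sources used here, so the listed value cannot be read as its level. None of the 25 passed between genotypes with limma or voom, and 7 in GM and 3 in DM3 had an unadjusted p under 0.05 with limma, beside 17.5% and 16.8% of all genes.

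Of 5 tetraspanins that pair with integrins in the membrane and the melusin paralogue Chordc1, 2 rose and 1 fell in the control, and 3 rose and 1 fell in the tKO, against the same all-gene shares. Cd82 rose from 31.6 ± 3.80 to 133 ± 4.74 FPKM in the control and from 24.1 ± 6.31 to 169 ± 36.9 in the tKO, changes of 2.05 and 2.76. Cd81 rose by 1.31 and 1.34. Cd151, the closest partner of α3, α6 and α7, rose by 0.27 in the tKO (adjusted p = 0.0202). The call for Cd151 was lost without clone 1 culture 1 of tKO GM (adjusted p = 0.0670) or clone 2 culture 2 of tKO DM3 (adjusted p = 0.0557). Chordc1 fell, with changes of -1.29 and -1.08, and at 8.75 ± 2.34 FPKM in control DM3 it was still far above Itgb1bp2 at 0.290 ± 0.0593. None of these 6 passed between genotypes with limma or voom, and 1 in GM and 0 in DM3 had an unadjusted p under 0.05 with limma, beside the same shares of all genes.

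**Figure D4:**
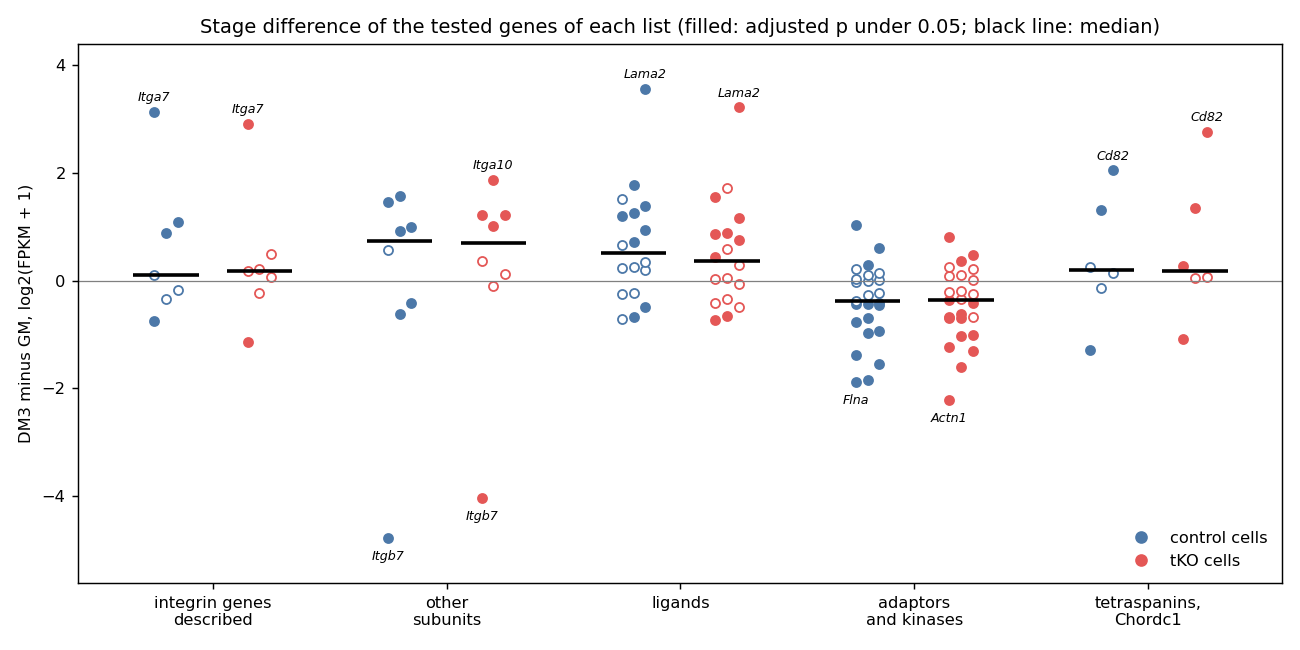
Difference of log2(FPKM + 1) between DM3 and GM for each tested gene of the integrin genes and the related lists, in control and tKO cells. Each point is 1 gene, filled points passed the test, black lines are medians, and the gene farthest from 0 in a list is named where its change is large. Lama2 at 3.56 and Itgb7 at -4.78 in the control are the extremes.

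Genes whose levels followed each member most closely over the 16 libraries were found by Pearson's r among 10923 protein-coding genes. These are descriptions, since the libraries share their groups and cultures. Itga7 was followed by Dym (r = 0.989) and Hid1 (0.987), Itga5 by Rasa4 (0.965) and Phldb3 (0.962), and Itga6 by Myo1c (0.963) and Glud1 (0.962). Itga3 was followed by Isca2 (0.904) and Cfl2 (0.897), Itgb1 by Cdh17 (0.905) and Star (0.884), and Itgb5 by Olfml3 (0.870) and Samd14 (0.831). Itgav was followed by Zfp62 (0.981) and Shprh (0.927). After the group means were taken out, Zfp62 (0.979) was still first for Itgav and Cdh17 (0.937) second for Itgb1, and the other 12 genes were replaced.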

How the data were processed

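RNA of 16 libraries was measured, 4 in each of 4 groups taken from the sample titles. The authors deposited FPKM values per gene and library, unpooled, per the file headers, and the labels name poly(A)-enriched RNA. STAR, DESeq and build mm10 appear in the submitters' processing notes, with no versions or roles. Annotation release and strand setting are not given in the sources used here. Coordinates are the table's, of which 6 members have the same span as in GENCODE M21 (GRCm38) and 4 overlap it. FPKM times length gave whole fragment numbers within 0.02 for 100% of values. Fragments are not independent molecules, so the floor of 3 fragments covers counting error only.

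Genes with a mean of at least 0.5 FPKM (11832) were fitted as log2(FPKM + 1) with limma 3.58.1 (R 4.3.3), a group-means model of all libraries with empirical Bayes (trend, robust) and Benjamini-Hochberg adjustment, threshold 0.05. The pseudocount understates changes of low genes. The procedure was tested on simulated data. Python 3.11.15 was used for descriptions and figures. Nothing says that cultures were independent, so p-values measure only the spread between these libraries.

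The integrin genes and the lists of subunits, ligands, adaptors, tetraspanins and cell type markers were chosen with earlier results of these data known. All 10 integrin genes are named. From each list, up to 3 genes per direction with the largest change past the threshold are named per comparison, and for each tested integrin gene the 2 protein-coding genes of highest r. Ilk with its overlapping genes, Itgae, Ptprc and Pax7 fall outside this rule and were named after their values were seen. An item that meets the rule is not reported here. Alternatives were the pseudocount, filters, scaling (TPM, median of ratios), voom, only the compared libraries, blocks, line averages, line as a random effect, and leaving out each library or line.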

Additional observations from a re-analysis of the deposited data

Results flagged for a closer look

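Itga1 read 0.0592 FPKM in control DM3 line 2 culture 2, from 12 fragments, and the other 3 control DM3 libraries read 0.0263, 0.0295 and 0.0262. The gap to the nearest library was 0.900 of the group's whole range, above Dixon's 95% critical value for 4 libraries. It was the only such value among 34 groups of 4 libraries examined for these genes, where chance marks about 1 group in 20. The difference amounts to a few fragments.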

How the results depend on the processing

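The stage calls of Itga7 and Itga3 in the control and of Itga7 and Itga6 in the tKO kept their direction and passed under all 31 alternatives, and no alternative gave a call between genotypes in DM3. Leaving out each library in turn gave 4 to 5 of the 7 genes called between stages in the control, 2 to 3 in the tKO, 1 between genotypes in GM, 0 in DM3 and 0 to 1 for the interaction. With control line 1 or control line 2 left out 0 were called in GM. With median-of-ratios scaling 4 were called between stages in the tKO. The culture number as a replicate block gave 2 calls in GM (Itga7 added, adjusted p = 0.0493) and 1 for the interaction (Itga3, adjusted p = 0.0248), and Itgav fell between stages in the control (adjusted p = 0.0416). The number within each stage as a replicate block gave 4 calls in the tKO stage comparison, 2 in GM and 1 for the interaction. Same-numbered libraries of different genotype had correlated deviations in GM (mean r 0.250, 0.0955 to 0.452, 8 pairs) and less evenly in DM3 (0.187, down to -0.224), so the number was not taken as a pairing. With line averages as units, Itgav in the control (adjusted p = 0.0384) and Itga5 in the tKO (0.0077) passed between stages, and Thbs2 (0.213) and Lamb3 (0.0627) missed the threshold. The cause was not tested for any of these.

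Signs turned for values near 0. With TPM the GM difference of Itgav was -0.014 and the interaction of Itgb1 0.038, and with median-of-ratios scaling the control stage change of Itgb5 was 0.038. Without control line 1, Itgav in GM was -0.021 and the interaction of Itgb1 0.0034. Without clone 1, Itgb5 was -0.0054 between stages in the tKO and 0.18 in GM, Itga3 was -0.049 and Itga6 0.031 in DM3, and the interaction of Itgb1 was 0.17. Without clone 2, Itgb1 was -0.14 between stages in the tKO and -0.11 in DM3, and Itgav was -0.027 in GM. Leaving out each library gave ranges across 0 between stages in the tKO for Itgb5 (-0.090 to 0.42) and Itgb1 (-0.043 to 0.19). In GM these were Itgb5 (-0.37 to 0.14) and Itgav (-0.0043 to 0.12), in DM3 Itga5 (-0.24 to 0.054) and Itga3 (-0.0082 to 0.075), and for the interaction Itgb1 (-0.15 to 0.084) and Itgav (-0.021 to 0.26). Over all genes the number called moved from 244 in GM to between 33 (without control line 1) and 1315 (without clone 2), from 400 in DM3 to between 49 and 1136 under the same omissions, and from 30 for the interaction to between 0 and 179. It moved from 7272 to 4440 and 4693 in the control stage comparison without either control line. Restricting the fit to the compared libraries could not be done for the interaction. Depth limits Itga1, Itga4 and Itgb1bp2, which had at most 40 fragments in a library.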
